A study of Mus musculus with 35 samples.

Results

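Described here are 10 antioxidant and glutathione genes in sorted mouse cortical astrocytes, with the level of each in every library and its change after lipopolysaccharide (LPS). They are Gclc, Gclm, Gpx1, Gpx3, Gpx4, Sod1, Sod2, Cat, Hmox1 and Nqo1. Each was found by an exact match of its gene symbol in the deposited expression table, and all 10 were found among its 19573 genes. The matching used the names alone and no measured value, although the list of names was drawn up with earlier results of these data known.

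The 35 libraries are bulk RNA sequencing of FACS-purified cortical astrocytes from Aldh1l1egfp mice at postnatal day 30 to 35. The genotype Aldh1l1egfp was shared by all groups, and it is known as a reporter that marks cells using the astrocyte gene Aldh1l1 with a green fluorescent protein. Females were taken 3 h after injection (4 saline and 5 LPS libraries), after 24 h (5 and 4) and after 72 h (4 and 3). Males were taken only after 24 h (5 and 5). LPS, a bacterial cell wall component that starts systemic inflammation, was injected at 5 mg/kg. Whether libraries stand for separate animals is not stated in the labels, so the p-values measure the spread between libraries, which may be technical.

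Astrocytes are a main source of glutathione in the brain. Glutamate-cysteine ligase makes its precursor, glutathione peroxidases spend glutathione to reduce peroxides, and glutathione reductase restores it with NADPH. Superoxide dismutases turn superoxide into hydrogen peroxide, which catalase and the peroxidases remove. The transcription factor NRF2, held in check by KEAP1, binds antioxidant response elements and is known to drive Gclc, Gclm, Hmox1 and Nqo1.

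Levels are in FPKM, a read abundance scaled by transcript length and library size. A change is a log2 fold change of FPKM + 1 from 1 linear model fitted with limma to all libraries and the 19426 genes that reached an FPKM of 1 in at least 3 libraries. It is given with its standard error and a p-value adjusted by Benjamini and Hochberg over all genes tested. All 10 genes passed this filter. Adding 1 understates the change of a gene with a low level. The number of reads behind each value is unknown, so no counting error is given. Because these are bulk libraries, fewer cells of a type and less RNA per cell cannot be told apart.

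FPKM summed to between 456417 and 565592 per library. The astrocyte genes Aqp4, Slc1a2 and Aldh1l1 were high in every group, with group means of at least 181, 622 and 87.3 FPKM. Between 4.86% and 24.4% of that sum came from mitochondrially encoded genes. The median share was 20.8% in female saline and 17.8% in female LPS at 3 h, 15.1% and 10.1% in females at 24 h, 18.9% and 7.62% in males at 24 h, and 11.7% and 14.7% in females at 72 h. The deposited numbers came in 2 formats, with 11 of the 24 h libraries in single and all others in double precision. What the formats stand for is not stated in the sources used here. The model has no term for them, and 24 h values are given within each format as well.

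In the 18 saline libraries catalase, the peroxisomal enzyme that splits hydrogen peroxide, had the highest mean level at 88.2 ± 20.4 FPKM (SD, n = 18). Gpx4 followed at 66.5 ± 31.7, Sod1 at 52.5 ± 25.0, Sod2 at 20.9 ± 4.73, Gclm at 18.4 ± 6.18, Gpx1 at 17.1 ± 7.69 and Gclc at 14.7 ± 2.21. At the low end were Nqo1 at 6.86 ± 1.95, Hmox1 at 6.37 ± 2.6 and Gpx3 at 1.47 ± 1.02. Neighbours in this order overlapped in range, except that Gclc lay above Nqo1 in 18 of 18 libraries with no overlap. Hmox1 was above Gpx3 in 18 of 18 libraries although their ranges overlapped. Nqo1 exceeded Hmox1 in only 10 of 18, and Gclm exceeded Gpx1 in 11 of 18, so these pairs were not ordered beyond their spread. The Gpx4 level leaves out Gpx4-ps2, a near-identical transcript described below. With it the saline group means were 105.5, 119.9 and 150.6 FPKM in females at 3 h, 24 h and 72 h, and 87.9 in males. Catalase was at 84.0, 97.1, 76.2 and 92.5 in these groups, so the order of catalase and Gpx4 is uncertain. No gene differed in saline between 3 h and 24 h, between 72 h and 24 h, or between the sexes by limma, and none reached an unadjusted p under 0.05 there. Over all genes 0.798%, 3.04% and 0.0515% passed in these 3 saline comparisons.

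**Figure D1:**
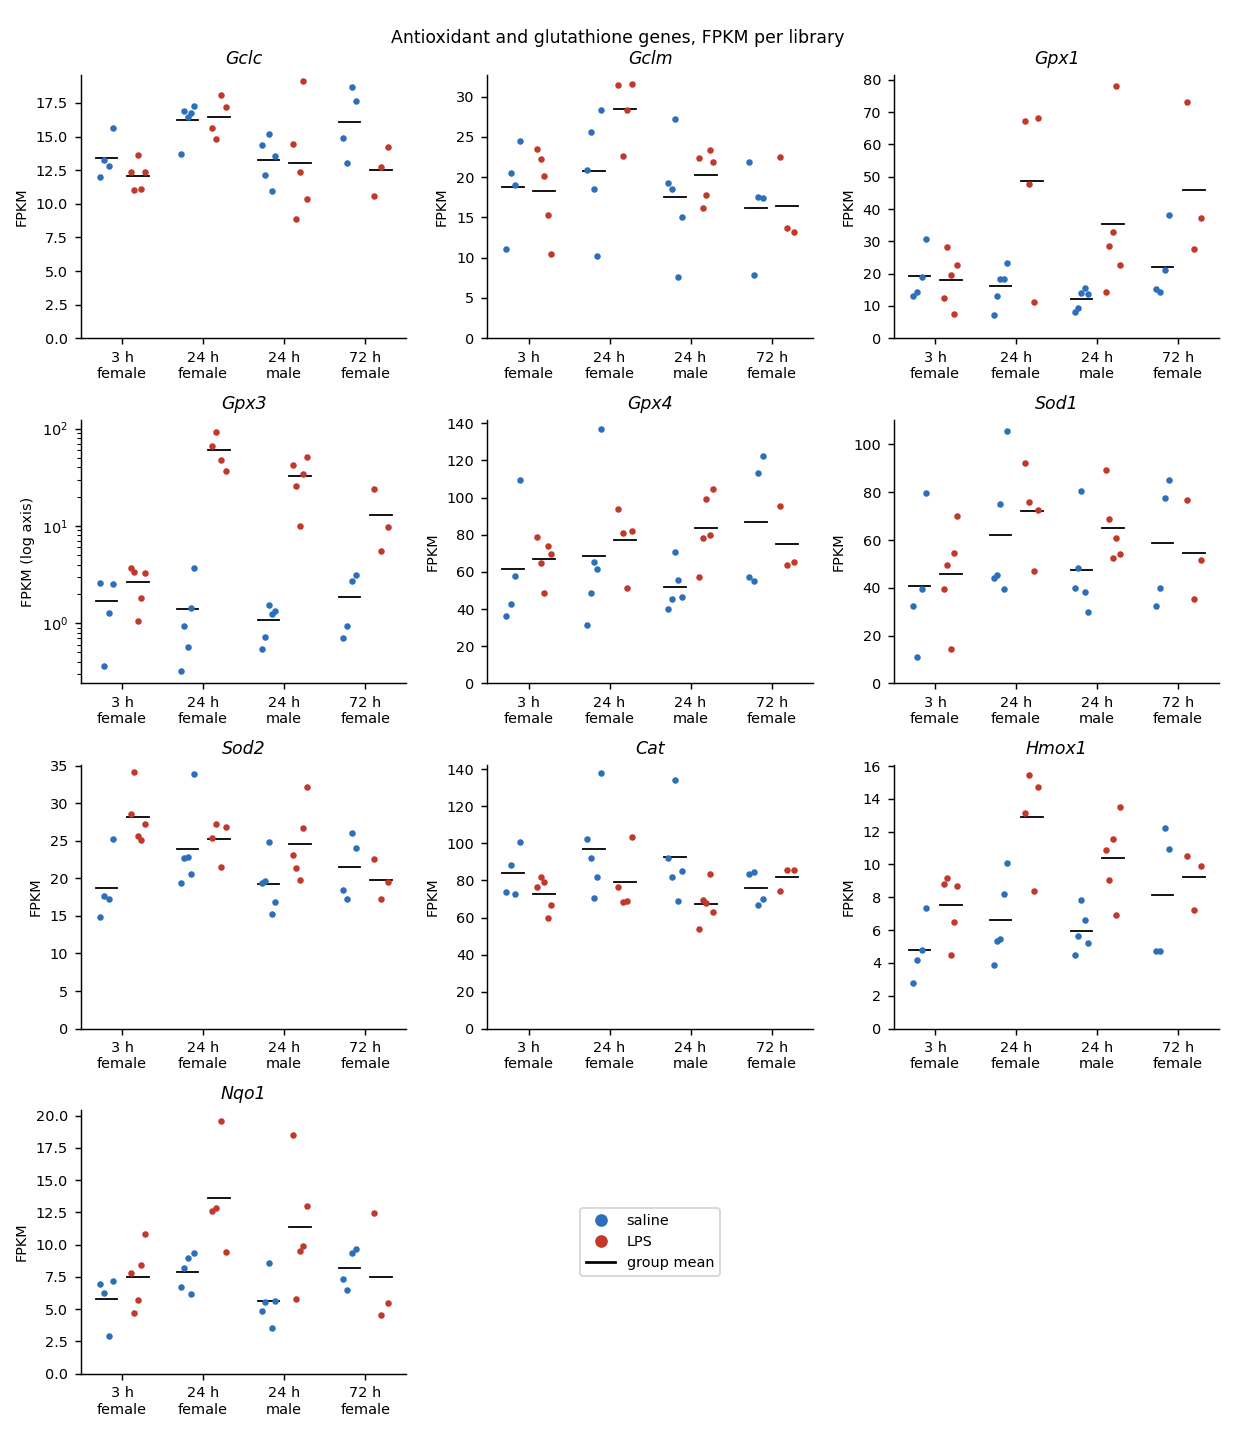
FPKM of each of the 10 genes in the 35 libraries, by time and sex, with saline in blue, LPS in red and a bar at the group mean. Gpx3 is on a log axis and the other panels start at 0. Gpx3 in LPS at 24 h, from 9.86 to 93.1 FPKM, lies above every saline library.

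The 3 glutathione peroxidases share a selenocysteine, which a UGA codon encodes and which reduces the peroxide. The coding sequence around that codon is shown because Gpx3 carries the main result, with Gpx1 and Gpx4 for comparison. The lines give 57 bases of the coding strand from GENCODE transcripts, on genome build GRCm38 (mm10), with the selenocysteine codon in capitals.
Gpx1: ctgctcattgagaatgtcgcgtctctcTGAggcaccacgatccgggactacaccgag
Gpx3: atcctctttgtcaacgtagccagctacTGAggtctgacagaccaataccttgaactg
Gpx4: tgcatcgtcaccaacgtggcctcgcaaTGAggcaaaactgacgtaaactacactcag
The codon is number 47 of 201 in Gpx1 (chr9:108339451-108339453), 73 of 226 in Gpx3 (chr11:54907256-54907258) and 129 of 253 in Gpx4 (chr10:80054737-80054739), all on the plus strand. Over these bases Gpx1 and Gpx3 were identical at 45.6% of positions, Gpx1 and Gpx4 at 54.4%, and Gpx3 and Gpx4 at 50.9%. Their transcripts were therefore not near-identical copies of each other here.

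Gpx3 (ENSMUSG00000018339.11, chr11:54902453-54910377, plus strand) encodes the secreted glutathione peroxidase, known chiefly from blood plasma. Of the 10 genes it had the largest log2 fold change at 24 h in both sexes and at 72 h, but not at 3 h. At 24 h in females it was at 66.0, 93.1, 47.4 and 37.1 FPKM in the LPS libraries and at 0.319, 0.928, 0.564, 1.42 and 3.73 FPKM in saline. Every LPS library was far above every saline library. Its log2 fold change was 4.77 ± 0.42 (adjusted p = 1.987e-09, 95% interval 3.91 to 5.63). In males at 24 h the LPS libraries held 42.3, 25.9, 9.86, 34.4 and 51.1 FPKM, against 0.544, 0.714, 1.53, 1.23 and 1.35 FPKM in saline. These groups did not overlap either, although male LPS replicate 3 was well below the rest. The log2 fold change in males was 3.87 ± 0.40 (adjusted p = 6.381e-08).

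At 3 h Gpx3 was at 3.66, 3.38, 1.04, 1.83 and 3.32 FPKM after LPS and at 2.56, 0.365, 1.28 and 2.52 FPKM after saline. The groups overlapped and the change of 0.48 ± 0.42 did not pass (adjusted p = 0.711). At 72 h the LPS libraries were at 24.2, 5.47 and 9.65 FPKM and the saline libraries at 0.710, 0.933, 2.73 and 3.09. All 3 LPS libraries lay above all saline libraries, but below all 4 female LPS libraries of 24 h. The 72 h change was 2.17 ± 0.48 on the log2 scale, with an adjusted p of 0.0705 that missed the threshold of 0.05. With 1 library left out it passed in 1 of 7 fits, that without LPS replicate 2 (2.62, adjusted p = 0.023). Over all alternatives it passed in 7 of 19, and its adjusted p ran from 1.151e-04 to 0.490.

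The Gpx3 response was tested between times and sexes directly. It was larger at 24 h than at 3 h in females by 4.29 ± 0.60 on the log2 scale (adjusted p = 4.031e-05), a comparison in which 0.293% of all genes were higher. The 72 h response minus the 24 h response was -2.6 ± 0.64, which did not pass (adjusted p = 0.0667, and 0.324% of genes were lower). The female response exceeded the male one by 0.90 ± 0.58, with an interval from -0.28 to 2.08, and did not pass (adjusted p = 0.945). Levels in LPS females were 0.97 ± 0.42 above LPS males, also short of the threshold (adjusted p = 0.466). By limma 0 of the 10 genes differed in LPS response between the sexes (background 0%), and none had an unadjusted p under 0.05 there. Between LPS females and LPS males 0 of the 10 passed (background 0.0721%) and 2 had an unadjusted p under 0.05. None passed in the authors' deposited table, which called 175 of 16831 genes. The share of all genes at that unadjusted threshold is not given.

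Within the 24 h formats the Gpx3 change was 5.41 (adjusted p = 1.364e-08) in the single-precision and 3.50 (adjusted p = 0.168) in the double-precision female libraries, of which 1 was LPS. In males it was 4.18 (adjusted p = 2.939e-05) and 3.57 (adjusted p = 0.00325). With the mitochondrial share as a covariate the change was 4.41 in females and 3.16 in males. Without the 10 libraries whose share was under 10% it was 4.61 and 3.07, and all 4 of these values passed.

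**Figure D2:**
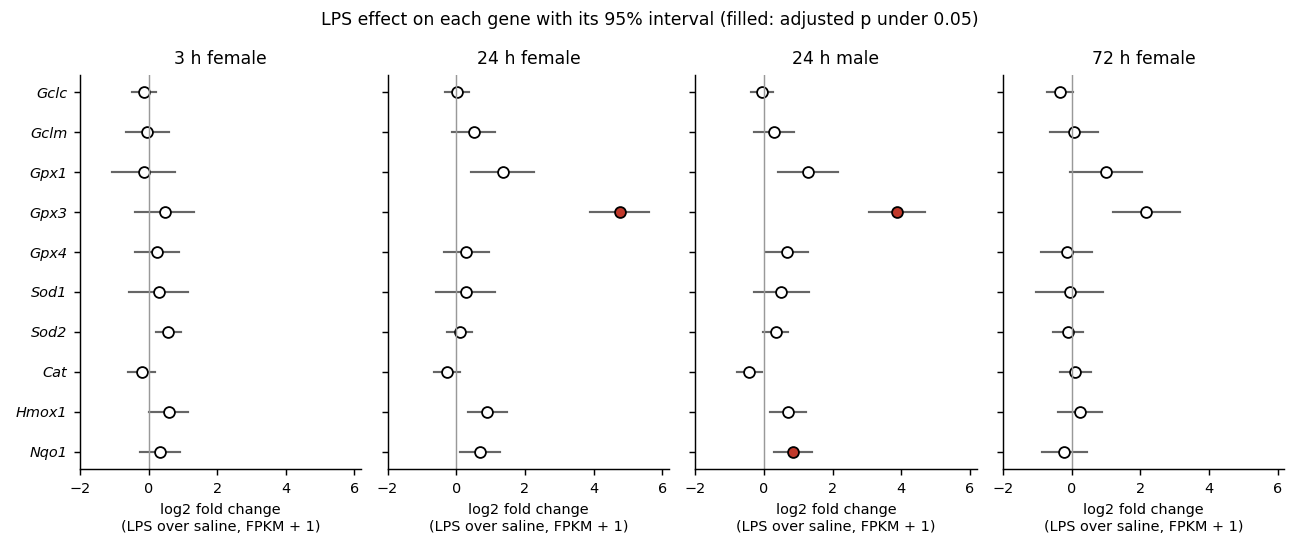
Log2 fold change of each gene, LPS over saline on the log2(FPKM + 1) scale, with its 95% interval from limma, in the 4 comparisons. Filled points passed an adjusted p of 0.05: Gpx3 at 24 h in females (4.77) and males (3.87), and Nqo1 at 24 h in males (0.85).

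Gpx1 (chr9:108338903-108340343, plus strand), the cytosolic peroxidase for hydrogen peroxide, spread widely among LPS libraries. At 24 h in females it was at 67.2, 47.8, 11.1 and 68.1 FPKM after LPS and at 7.14 to 23.2 FPKM after saline. LPS replicates 1, 2 and 4 were above all saline libraries and replicate 3 was not. In males the LPS libraries held 14.4, 28.7, 33.0, 78.1 and 22.6 FPKM and the saline libraries 8.07 to 15.7. The changes were 1.35 ± 0.46 in females (adjusted p = 0.109) and 1.28 ± 0.43 in males (adjusted p = 0.0545), so neither passed. With 1 library left out the female value passed in 1 of 9 fits, that without LPS replicate 3 (1.94, adjusted p = 0.00735). The male value passed in 1 of 10, that without LPS replicate 1 (1.53, adjusted p = 0.0336). In the other fits of this kind the adjusted p reached 0.382 in females and 0.177 in males. Both passed in the authors' deposited table, where 541 of 18892 genes were higher in females and 1587 of 17717 in males. The Gpx1 log2 fold change there was 1.17 in females (adjusted p = 0.0386) and 1.08 in males (adjusted p = 0.0100). Within the single-precision and double-precision libraries it was 1.39 and 1.67 in females and 0.93 and 1.35 in males, and none of these passed. The double-precision female set held 1 LPS library. At 72 h Gpx1 was at 73.1, 27.5 and 37.2 FPKM after LPS and at 14.3 to 38.1 after saline (1.0 ± 0.52, adjusted p = 0.927). At 3 h the change was -0.14 ± 0.46 (adjusted p = 0.926).

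Gpx4 (chr10:80047166-80056439, plus strand) reduces lipid peroxides within membranes and protects cells from ferroptosis. Its LPS libraries in males held 57.4, 78.5, 99.1, 79.6 and 104 FPKM, against 40.1 to 70.6 in saline, and the groups overlapped in the lowest LPS library. The change of 0.69 ± 0.30 did not pass (adjusted p = 0.125), and within the single-precision and double-precision libraries it was 0.40 and 0.87. In females it was 0.24 ± 0.32 at 3 h, 0.30 ± 0.32 at 24 h and -0.14 ± 0.36 at 72 h, with adjusted p-values of at least 0.759. Gpx4-ps2, annotated as a processed transcript, matches the Gpx4 transcript at 99.7% over 762 bases, and the table lists it at a mean of 50.1 FPKM over all libraries. Reads may be split between the pair, so levels of Gpx4 are uncertain. The 2 rows together summed to a mean of 142 ± 28.4 FPKM in male LPS and 87.9 ± 24.3 in male saline.

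The cytosolic copper-zinc dismutase Sod1 (chr16:90220754-90226329, plus strand) had log2 fold changes of -0.05 to 0.51 in the 4 comparisons, with adjusted p-values of at least 0.388. Its 95% intervals reached from -1.03 to 1.31, so moderate changes in either direction remain possible at this spread. The pseudogene Gm8566 matches Sod1 at 97.8% over 465 bases and was listed at a mean of 10.01 FPKM, so Sod1 levels carry the same uncertainty on a smaller scale.

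The mitochondrial manganese dismutase Sod2 (chr17:13006846-13040063, plus strand) came closest to passing at 3 h. It was then at 28.5, 34.2, 25.6, 25.1 and 27.2 FPKM after LPS and at 14.8, 17.6, 17.2 and 25.2 FPKM after saline. Saline replicate 4 reached the lowest LPS library. The change of 0.58 ± 0.18 did not pass (adjusted p = 0.106). With 1 library left out it passed in 1 of 9 fits, and the adjusted p reached 0.375. The passing fit was that without saline replicate 4 (0.73, adjusted p = 0.0302). That library also had the lowest mitochondrial share of its group, 13.9% against 22.7% for the highest. At 24 h the change was 0.10 ± 0.18 in females and 0.34 ± 0.17 in males, and at 72 h it was -0.10 ± 0.21.

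Catalase (Cat, chr2:103453849-103485160, minus strand) was the only gene of the 10 with a negative change in both sexes at 24 h. In males it was at 53.7, 69.6, 67.9, 83.5 and 63.2 FPKM after LPS and at 92.0, 82.1, 134, 68.9 and 85.0 after saline. The groups overlapped, and the change of -0.43 ± 0.18 did not pass (adjusted p = 0.115). It passed in 2 of 25 alternatives, over which the adjusted p reached 0.808. These were quantile normalization (-0.63, adjusted p = 0.0295) and the authors' deposited table (-0.64, adjusted p = 0.0250). Over all genes quantile normalization gave 713 lower in males, against 353 in the main fit. The authors' deposited table gave 1809 of 17717 lower. Within the formats the Cat change was -0.71 in single-precision and -0.11 in double-precision male libraries, and neither passed. In females at 24 h it was -0.27 ± 0.19 (adjusted p = 0.581).

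Gclc (chr9:77754535-77794485, plus strand) encodes the catalytic subunit and Gclm (chr3:122245557-122270732, plus strand) the modifier subunit of glutamate-cysteine ligase, the rate-limiting enzyme of glutathione synthesis. Neither passed the test in any comparison. For Gclc the changes lay between -0.34 and 0.02 on the log2 scale, and the 95% interval at 24 h in females was -0.32 to 0.36. Gclm was at 31.4, 22.6, 28.3 and 31.5 FPKM in female LPS at 24 h and at 20.9, 25.5, 18.5, 10.2 and 28.4 in saline (0.50 ± 0.30, adjusted p = 0.494). In males its change was 0.29 ± 0.29 (adjusted p = 0.508). The exons of Gclm overlap those of Gm17494 on the opposite strand by 296 bases and of Gm6061 on the same strand by 244 bases, so a small share of its reads may belong to them.

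Hmox1 (chr8:75093621-75100589, plus strand), the inducible heme oxygenase that breaks heme down to biliverdin, iron and carbon monoxide, did not pass in any comparison. At 24 h in females it was at 13.1, 15.4, 8.40 and 14.7 FPKM after LPS and at 3.88, 5.34, 5.47, 8.21 and 10.1 after saline. Only LPS replicate 3 lay within the saline range. The change was 0.90 ± 0.28 (adjusted p = 0.0681). With 1 library left out it passed in 2 of 9 fits, and the adjusted p reached 0.242. The passing fits were those without LPS replicate 3 (1.08, adjusted p = 0.0449) and without saline replicate 5 (1.05, adjusted p = 0.0297). Saline replicate 5 had the lowest mitochondrial share of its group, 8.88%. With that share as a covariate the change was 0.70 in females (adjusted p = 0.109) and 0.29 in males (adjusted p = 0.714). Within the formats the female change was 1.15 in single-precision and 0.64 in double-precision libraries, of which 1 was LPS, and neither passed. In males it was 0.70 ± 0.26 (adjusted p = 0.0794), at 3 h 0.59 ± 0.28 (adjusted p = 0.389) and at 72 h 0.25 ± 0.32 (adjusted p = 0.958).

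Nqo1 (chr8:107388225-107403206, minus strand), a quinone reductase and a common readout of NRF2 activity, passed only in males at 24 h. There it was at 18.5, 5.81, 9.49, 9.91 and 13 FPKM after LPS and at 4.83, 5.53, 8.57, 3.55 and 5.62 after saline. The groups overlapped in LPS replicate 2. The change was 0.85 ± 0.27 (adjusted p = 0.0431). This call was lost in 8 of the 10 fits that left out 1 library, where the adjusted p reached 0.116, and in the authors' deposited table (0.69, adjusted p = 0.0919). Within the formats it was 0.69 (adjusted p = 0.556) in single-precision and 1.09 (adjusted p = 0.151) in double-precision libraries. With the mitochondrial share as a covariate it was 0.41 (adjusted p = 0.562). In females at 24 h Nqo1 was at 12.6, 12.9, 19.6 and 9.43 FPKM after LPS and at 6.76, 8.18, 8.94, 6.21 and 9.34 after saline. All 4 LPS libraries lay just above all 5 saline libraries, yet the change of 0.69 ± 0.29 did not pass (adjusted p = 0.237). The difference between the sexes was -0.16 ± 0.39, with an interval from -0.97 to 0.64.

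Counted together, 0 of the 10 genes passed at 3 h in females, where 1.94% of all tested genes were higher and 0.443% lower, 2 had an unadjusted p under 0.05 and none passed in the authors' deposited table. At 24 h in females 1 was higher (Gpx3; background 2.54% higher and 0.798% lower), and at 24 h in males 2 were higher (Gpx3 and Nqo1; background 7.08% higher and 1.82% lower). At 72 h 0 passed by limma (background 0.0772% higher and 0% lower) and 1 had an unadjusted p under 0.05. There 1, Gpx3, passed in the authors' deposited table. That table also had Gpx1 and Gpx3 higher at 24 h in both sexes, and Cat lower in males. Over all genes it called 643 of 18759 at 3 h and 139 of 18528 at 72 h. At 24 h it called 807 of 18892 in females and 3396 of 17717 in males. At 24 h Hmox1, Nqo1, Gpx1 and Gpx3 had an unadjusted p under 0.05 in both sexes, and Gpx4 and Cat in males. No share of all genes is given for that unadjusted threshold, so these counts have no background. LPS libraries lay above all saline libraries for no gene at 3 h (background 2.98%), for Gpx3 and Nqo1 at 24 h in females (background 3.32%), for Gpx3 in males (background 9.55%) and for Gpx3 at 72 h (background 2.34%). The median log2 fold change of the 10 genes was 0.27 at 3 h, 0.40 at 24 h in females, 0.60 at 24 h in males and 0.01 at 72 h. The median of all genes, which were not matched to the 10 by level, was 0.02, 0.05, 0.18 and -0.10. In males 1376 genes were higher and 353 lower, and scaling by the median of ratios brought the median of all genes to 0.03 and these counts to 754 and 634.

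Several of the genes moved with the mitochondrial share among the saline libraries. The 4 saline libraries with a share of 5.43% to 13.9% held 110 to 137 FPKM of Gpx4, against 31.5 to 70.6 in the 14 with 14.9% to 24.4%. Gpx1 was at 21 to 38.1 FPKM in these 4 and at 7.14 to 18.9 in the 14. Neither gene overlapped between these sets, which were defined from the data and are not groups of the study. Of all tested genes, 9.19% were likewise higher with no overlap in these 4 libraries. The other genes overlapped between the sets. Medians in the 4 and the 14 libraries were 2.91 and 0.930 FPKM for Gpx3, 10.5 and 5.01 for Hmox1, and 82.5 and 39.7 for Sod1. Cat did not follow the share, with medians of 85.4 and 84.0 FPKM. Male LPS libraries ranged from 4.86% to 16.3% and male saline libraries from 16.8% to 23.4%. The part of the share in the Gpx4, Gpx1 and Nqo1 values at 24 h in males was not tested beyond the covariate fit and the fit without the libraries under 10%. None of the 3 genes passed in either fit, but Gpx4 and Gpx1 had not passed in the main fit. The Gpx4 change was 0.15 with the covariate and 0.79 with the filter, against 0.69 in the main fit, so these fits differed. For Gpx1 the values were 1.02 and 1.31, against 1.28. For Nqo1 they were 0.41 and 0.39, against 0.85. The filter left only replicates 2 and 3 of the male LPS libraries. Over all genes 267 were higher in males with the covariate and 178 with the filter, against 1376 in the main fit. Passing was thus rarer at large in these fits, and the part of the share cannot be read from them.

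**Figure D3:**
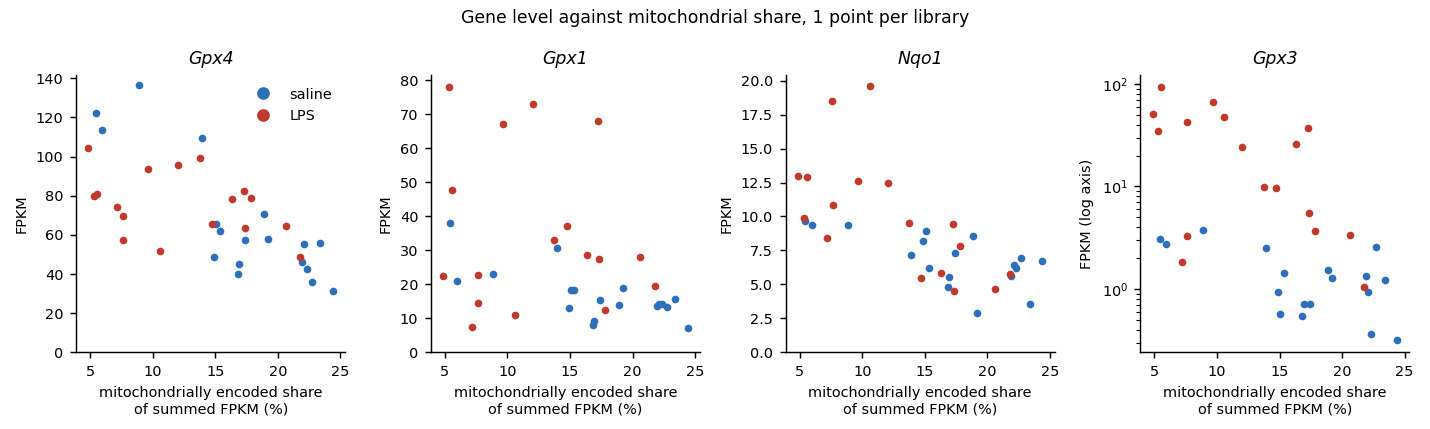
FPKM of Gpx4, Gpx1, Nqo1 and Gpx3 in each of the 35 libraries against the percent of the FPKM sum from mitochondrially encoded genes, with saline in blue and LPS in red. Among saline libraries Gpx4 is highest where the share is low, and Gpx3 in LPS at 24 h is at 9.86 to 93.1 FPKM over shares of 4.86% to 17.3%.

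Markers of other cells were present and moved with LPS. The summed FPKM of 15 microglia markers was 50.5 to 267 in female saline and 99.8 to 222 in female LPS at 24 h, 75.7 to 263 and 149 to 371 in males, 229 to 453 and 149 to 256 at 3 h, and 257 to 620 and 581 to 942 at 72 h. Of these 15, 5 were higher and 2 lower in males at 24 h, 1 was lower in females at 24 h, 2 were lower at 3 h and none passed at 72 h. P2ry12, a defining microglia gene, was at 3.64 ± 2.58 FPKM in female LPS at 24 h and 13.9 ± 6.95 in saline. Of 10 blood leukocyte markers 4 were measured. At 24 h they summed to 7.93 to 17.9 FPKM in female LPS and 0.609 to 3.84 in saline. In males at 24 h they summed to 6.97 to 32.6 and 0.367 to 5.44, with S100a8 and S100a9 higher in both sexes. At 72 h they summed to 5.04 to 30.5 FPKM in female LPS and 0.734 to 1.67 in saline, with no overlap. The marker Ptprc passed there (1.965 ± 0.38, adjusted p = 0.0163). At 3 h the sums in LPS and saline overlapped. In female saline at 24 h S100a9 was listed at 0 throughout. Ependymal and choroid markers summed to 56.2 to 66.3 FPKM in female LPS at 24 h and 15.2 to 42.8 in saline, and to 59.4 to 177 and 15.7 to 31.4 in males, with 0 and 1 of 5 tested markers higher. Erythroid markers, from cells rich in catalase and Gpx1, were lower in female LPS at 24 h for 2 of 5 and summed to 49.9 to 153 FPKM against 150 to 475. At 72 h they summed to 124 to 648 FPKM in female LPS and 757 to 1787 in saline, with no overlap. At 3 h and in males at 24 h the erythroid sums overlapped. Of 15 endothelial markers 5 were lower at 3 h, 1 was higher and 1 lower at 24 h in females, and 3 were higher in males. Of 12 neuron markers 4 were higher in males at 24 h and none passed elsewhere. The part of these cells in the values of the 10 genes was not tested.

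The upstream sequences are shown because the antioxidant response element is the site through which NRF2 acts on several of these genes. RefSeq promoter entries on GRCm38.p6 were matched for 8 of the 10 genes, namely Cat, Gclm, Nqo1, Gpx1, Gpx3, Gpx4, Sod1 and Sod2. The 250 bases before each start were searched on both strands for the element's core, TGACNNNGC. It was found in Gclm, 134 to 126 bases upstream, and in Sod1, 56 to 48 bases upstream, and 10.2% of 32851 promoters hold it. The lines below give the coding strand of each window outside the gene's annotated exons, with the core, here on the other strand, in capitals. The Gpx3 line, shown for the gene with the largest change at 24 h, has no capitals. It ends at the first exon of transcript Gpx3-201 and lies within the annotated gene, since transcript Gpx3-202 starts further upstream.
Gclm, chr3:122245307-122245556: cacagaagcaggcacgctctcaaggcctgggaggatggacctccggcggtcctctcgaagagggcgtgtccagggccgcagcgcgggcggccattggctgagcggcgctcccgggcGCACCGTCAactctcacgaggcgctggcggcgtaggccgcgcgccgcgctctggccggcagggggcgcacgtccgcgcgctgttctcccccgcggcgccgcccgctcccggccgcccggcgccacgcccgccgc
Sod1, chr16:90220512-90220753: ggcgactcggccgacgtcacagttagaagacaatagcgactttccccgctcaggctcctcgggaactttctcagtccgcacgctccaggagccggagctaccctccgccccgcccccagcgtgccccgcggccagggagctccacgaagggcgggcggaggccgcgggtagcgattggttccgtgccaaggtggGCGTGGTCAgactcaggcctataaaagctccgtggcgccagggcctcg
Gpx3, chr11:54902604-54902771: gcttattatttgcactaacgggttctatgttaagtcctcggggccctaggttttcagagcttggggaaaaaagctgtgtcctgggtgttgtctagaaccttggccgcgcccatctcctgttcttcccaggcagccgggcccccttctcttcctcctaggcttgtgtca
The whole 250-base windows of Gpx3, Nqo1 and Gpx4 also held no match to the STAT (TTCNNNGAA, 7.02% of promoters), C/EBP (TTGCNNAA, 9.56%), interferon-stimulated (2.98%), glucocorticoid (0.387%) or kappaB (7.25%) motifs. Sod2 held a STAT and a kappaB match, and Cat and Gpx1 a kappaB match each. The kappaB matches of Sod2 and Cat were on both strands at the same bases. A match is no proof of binding, and its absence concerns these bases only.

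By likeness of their group means over the 8 groups, the genes nearest to Gpx3 were Serping1, the C1 inhibitor gene, C4a, a complement component, and Aspg, an asparaginase, at root mean square differences of 0.47, 0.48 and 0.50 on the log2 scale. Serping1 was at 64.4 to 146 FPKM in female LPS at 24 h and at 1.12 to 3.06 in saline. In female LPS at 72 h it was at 4.89 to 12.7 FPKM, against 2.49 to 6.05 in saline. Nearest to Nqo1 were Ankrd9, Mknk2 and Hsd17b10, at 0.06, 0.09 and 0.09.

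**Figure D4:**
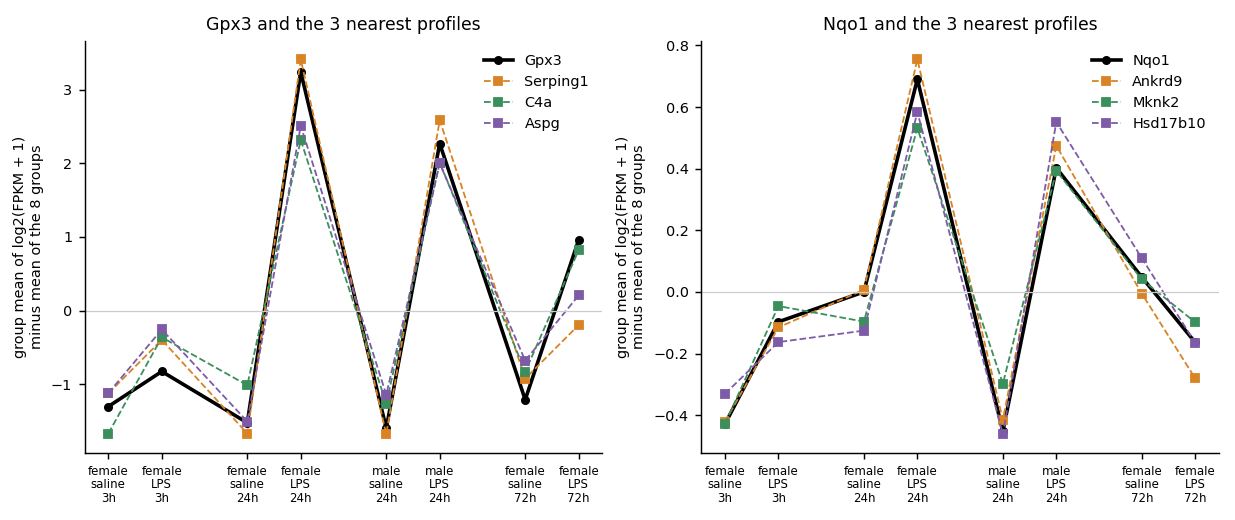
Group mean of log2(FPKM + 1), centred on the mean of the 8 groups, for Gpx3 and Nqo1 (black) and the 3 genes nearest to each (dashed). Gpx3, Serping1, C4a and Aspg are all highest in LPS at 24 h in both sexes. In LPS at 72 h Gpx3 is at 0.96 and C4a at 0.82.

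The rest of the pathway was read from lists of known genes. Their counts stand against the shares of all genes given above, which were 1.94% higher and 0.443% lower at 3 h, 2.54% and 0.798% at 24 h in females, and 7.08% and 1.82% at 24 h in males. Of 14 tested genes of glutathione synthesis, recycling and turnover, which include Gclc and Gclm, 1 was higher at 3 h, 1 lower at 24 h in females, and 2 higher and 1 lower in males. Leaving out 1 library gave 1 to 2 higher at 3 h, 0 to 1 lower in females, and 0 to 2 higher and 1 lower in males. Gsr, glutathione reductase, rose at 3 h from 6.89 to 8.94 FPKM in saline to 15.0 to 18.6 in LPS, with no overlap (1.01 ± 0.22, adjusted p = 0.00395), and in males at 24 h by 0.68 ± 0.21 (adjusted p = 0.0348). Chac2, which degrades glutathione, fell by 0.90 ± 0.25 in females and by 1.15 ± 0.24 in males at 24 h. Oplah, which returns 5-oxoproline to glutamate, rose in males by 1.0 ± 0.29. Slc7a11, the cystine importer that feeds glutathione synthesis, was at 32.8 to 60.1 FPKM in LPS and 55.4 to 86.3 in saline at 3 h (-0.78 ± 0.25, adjusted p = 0.123).

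Of 20 thioredoxin, peroxiredoxin and glutaredoxin genes 2 were higher at 24 h in each sex and none passed at 3 h or 72 h. Both were Prdx4, the peroxiredoxin of the endoplasmic reticulum, and Txnip, which binds and inhibits thioredoxin. Prdx4 went from 29.2 to 50.4 FPKM in saline to 80.9 to 92.7 in LPS in females (1.31 ± 0.22, adjusted p = 2.105e-04). Txnip rose by 1.54 ± 0.35 in females and 1.49 ± 0.33 in males. Of 20 glutathione transferase genes 1 was higher in females (Mgst1, membrane-bound, by 1.30 ± 0.26) and 5 in males, among them Gstm1 (1.26 ± 0.39), Gstz1 (1.15 ± 0.23) and Gstm4 (0.95 ± 0.31). The male count ran from 1 to 6 and the female count from 1 to 2 when 1 library was left out. The counts of the 20 thioredoxin genes ran from 0 to 2 higher at 3 h, 1 to 2 in females and 2 to 3 in males. None of the 9 other peroxidase and dismutase genes tested passed.

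Among 12 genes of NRF2 and its regulators 1 passed, Mafk, a small MAF partner of NRF2, at 3 h (1.05 ± 0.27, adjusted p = 0.0211). The transcript of NRF2, Nfe2l2, had a log2 fold change of 0.45 ± 0.20 at 3 h (adjusted p = 0.352) and of 0.01 ± 0.20 and 0.18 ± 0.19 at 24 h in females and males. Of 27 known NRF2 target genes beyond the 10, 1 was higher at 3 h (Gsr), 1 at 24 h in females (Fth1, a ferritin chain, by 1.52 ± 0.28) and 4 in males, with Fth1 at 1.63 ± 0.26 and Ephx1, an epoxide hydrolase, at 1.15 ± 0.33. Their medians were 0.16, 0.26 and 0.48, against 0.02, 0.05 and 0.18 over all genes. Levels were not matched between the list and all genes, and adding 1 understates the change of low-level genes. Leaving out 1 library gave 1 to 2 higher at 3 h, 1 to 3 in females and 1 to 5 in males, and 0 to 1 for the regulators at 3 h. The targets Txnrd1 (0.81 ± 0.25 at 3 h, adjusted p = 0.0901) and Srxn1 (0.42 ± 0.39, adjusted p = 0.723) did not pass.

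Of 14 genes of NADPH supply Idh2, the mitochondrial isocitrate dehydrogenase, rose at 24 h by 0.96 ± 0.28 in females and 1.28 ± 0.26 in males, and Pgls rose in males by 0.90 ± 0.28. Me3, a malic enzyme, fell by 0.89 ± 0.25 in females, and Nadk2, the mitochondrial NAD kinase, fell by 1.16 ± 0.27 in males. Leaving out 1 library gave 0 to 2 higher and 0 to 1 lower in females, and 1 to 2 higher and 1 to 2 lower in males. Of 15 heme genes, Hmox1 among them, only Uros of heme synthesis passed, and it fell by 0.96 ± 0.22 in females at 24 h. Of 13 oxidant-producing enzymes Xdh, xanthine dehydrogenase, was higher at 3 h, at 1.31 to 5.05 FPKM in LPS and 0.148 to 0.619 in saline (1.68 ± 0.21, adjusted p = 8.449e-07). At 24 h Ncf1, a subunit of the phagocyte NADPH oxidase, rose by 1.24 ± 0.34 in females and 1.41 ± 0.32 in males. In males Rac2, which activates that NADPH oxidase, rose by 1.69 ± 0.41, and Nox1 fell by 0.89 ± 0.27. Xdh also rose there, by 0.86 ± 0.20, from a level near 0 to at most 1.41 FPKM. Leaving out 1 library gave 1 to 2 higher in females, and 3 to 5 higher and 0 to 2 lower in males. Ncf1 and Rac2 are known from myeloid cells, whose part in these values was not tested.

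**Figure D5:**
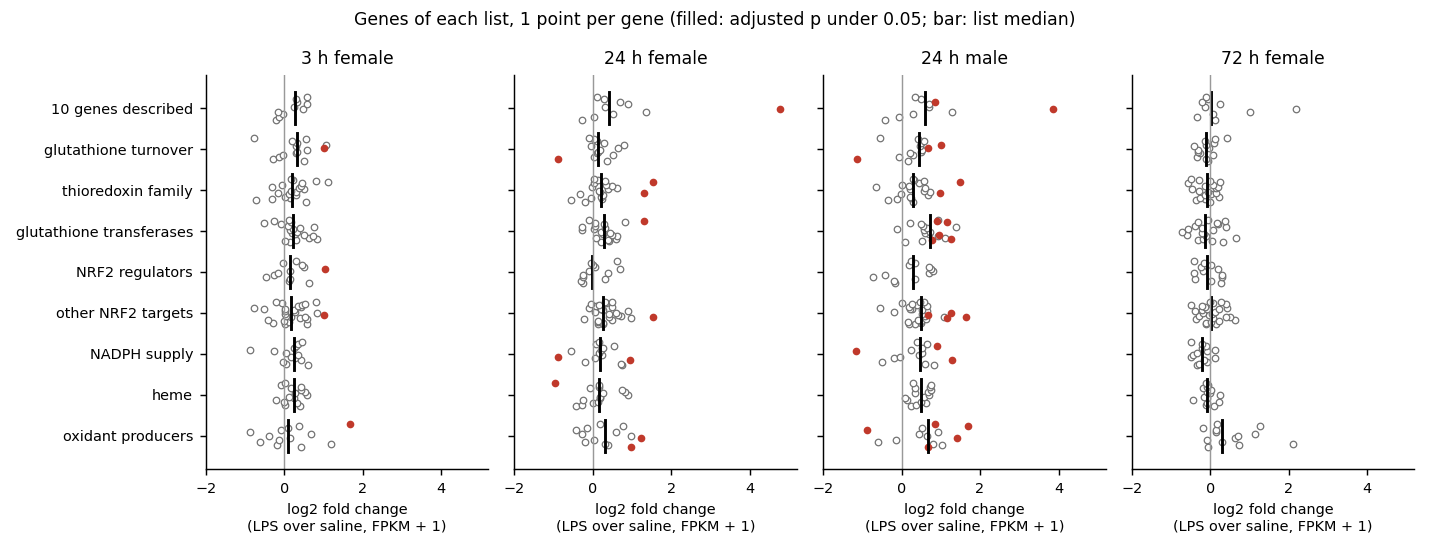
Log2 fold change, LPS over saline on the log2(FPKM + 1) scale, of every tested gene of each list in the 4 comparisons. Filled points passed an adjusted p of 0.05 and the black bar is the list median; at 72 h no gene of these lists passed.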

How the data were processed

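The authors deposited 1 table of FPKM per gene for the 35 libraries. It also holds the log2 fold changes and adjusted p-values of their own 6 comparisons. Per the labels' protocols, RNA of sorted cells was amplified with a SMART-seq HT kit and made into Nextera XT libraries. Reads were processed with HISAT2, StringTie and DESeq2 on mm10, per the submitters' processing notes, and versions are not given in the sources used here. Their p-values and log2 values are quoted as the authors' deposited table.

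The table held 19584 entries, of which 11 repeated an identifier, which left 19573 genes, and 19556 identifiers were found in GENCODE release M21. Spreadsheet dates had replaced 20 symbols, which were restored from identifiers. The model had 1 coefficient per group (limma 3.58.1 in R 4.3.3, eBayes with an intensity trend, two-sided), a pseudocount of 1, and Benjamini-Hochberg adjustment within each of 11 contrasts. The steps were tested on simulated data. Copies were sought with BLAST+ 2.17.0 among GENCODE transcripts (identity of at least 95% over at least 200 bases). Coordinates are mm10. Named genes are the 10, up to 3 higher and 2 lower genes per list and LPS comparison with the largest change past the threshold, and the 3 nearest profiles of each gene that passed; Slc7a11, Nfe2l2, Txnrd1 and Srxn1 were named after their values were seen. A gene that this rule names is not reported here. The 10 genes and all lists were chosen with earlier results of these data known. Alternatives were another pseudocount, no filter, 3 other scalings, no trend, library weights, the groups of a comparison alone, the replicate number as a block, number format, each library left out, and female LPS 3 h replicates 4 and 5 left out together for their low mitochondrial share, known from earlier work. After the data were seen, the mitochondrial share was added as a covariate and as a filter.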

Additional observations from a re-analysis of the deposited data

Results flagged for a closer look

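In female saline at 24 h, Gclc was at 13.7 FPKM in replicate 1, apart from the other 4 libraries at 16.5 to 17.3 FPKM, by Dixon's test. In the same group Sod2 was at 33.9 FPKM in replicate 5, above the others at 19.4 to 22.9 FPKM. That library had the lowest mitochondrial share of its group, 8.88%. These were 2 flags in 70 groups of 4 or 5 libraries examined, and chance flags about 1 in 20.

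The LPS response of Gpx3 differed between times in females. It was larger at 24 h than at 3 h by 4.29 on the log2 scale by the test of that difference.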

How the results depend on the processing

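The Gpx3 change at 24 h passed in all 25 alternatives in males (3.07 to 4.70) and in 23 of 24 in females (3.50 to 5.7), the exception being the double-precision libraries, which hold 1 LPS library. Its 24 h minus 3 h difference passed in 31 of 31. Over all 10 genes and contrasts, 2690 values were recomputed, 42 calls were gained, 18 were lost and no called value changed sign, while 166 values that had passed no test did. Of the counts of genes higher at 24 h in females (1 as reported), median-of-ratios scaling and the authors' deposited table gave 2, the format as a batch term 3, library weights 4 and the double-precision libraries 0. In males (2 as reported), quantile normalization, median-of-ratios scaling, scaling without mitochondrial genes, each format alone, the mitochondrial covariate and the mitochondrial filter gave 1, the 2 groups alone 4 and library weights 6; 1 gene was lower after quantile normalization and in the authors' deposited table (0 as reported). At 72 h (0 as reported), quantile normalization, median-of-ratios scaling, library weights, the mitochondrial covariate, the mitochondrial filter and the authors' deposited table gave 1. Library weights also gave 2 higher at 3 h and 4 lower for 72 h minus 24 h (both 0 as reported). In saline these weights gave 1 higher for 24 h minus 3 h and 3 higher for 72 h minus 24 h (both 0 as reported). No share of all genes under these weights is given for the 72 h minus 24 h and saline contrasts, so those counts have no background. Leaving out 1 library gave 0 to 1 higher at 3 h, 1 to 3 at 24 h in females, 1 to 2 in males, 0 to 1 at 72 h, and 0 to 1 lower for 72 h minus 24 h. Over all 19426 genes the number called higher moved as well. Library weights gave 3419 in males, 1354 in females at 24 h, 810 at 3 h and 997 at 72 h. As reported these were 1376, 494, 376 and 15. At 72 h library weights also gave 2617 lower, against 0 as reported. In males the 2 groups alone gave 2224 and median-of-ratios scaling 754. Quantile normalization gave 805 higher and 713 lower in males, against 353 lower as reported. The causes were not tested.

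Replicate numbers were given in all groups. Deviations of saline and LPS libraries with the same number correlated at -0.40 to 0.37. No values are given for libraries of different number, so these correlations cannot show whether the number marks a pairing or batch. At 24 h the number went largely with the number format. Replicates 1 and 2 were in single and replicates 4 and 5 in double precision. Replicate 3 was in double precision in male LPS and in single precision otherwise. With the number as a block the counts were 0, 1, 2 and 0 higher at 3 h, 24 h in females, 24 h in males and 72 h, as without it. Groups of 3 to 5 libraries and the unknown depth limit what could be detected, most of all for Gpx3 in saline, near 1 FPKM.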
